A study of Mus musculus with 8 samples.

Results

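The genes of ligand-gated and G protein-coupled receptors for glutamate, GABA, glycine and acetylcholine were followed in mouse neural stem cells (NSCs) with and without irradiation. Members were all genes with a single-symbol probe set whose symbol starts with Gria, Grid, Grik or Grin and a digit, or with Grm, Gabr, Gabbr, Glra, Chrna, Chrnb or Chrm and a letter or digit. The rule found 58 genes, read by 115 probe sets, among 18193 genes with 1 symbol on the array. A gene is represented by its brightest probe set, taken by the mean of the 8 arrays, and 23 members had an intensity over 100 on at least 1 array. The cells were NSCs derived from mouse embryonic stem cells and kept in Euromed-N medium with N2 supplement, EGF and FGF2, per the methods mostly the line from E14Tg2a ES cells. Non-irradiated (non-irr) NSCs gave 4 arrays, and NSCs collected 7 days after 1 acute X-ray dose of 10 Gy (irr NSCs), not passaged in between, gave the other 4. RNA came from whole cultures, so fewer cells that express a gene and less RNA per cell cannot be told apart, and the p-values measure only the spread between these cultures.

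Fast transmission rests on receptors that are themselves ion channels: AMPA, kainate and NMDA receptors open to glutamate, GABA-A and glycine receptors carry chloride, and nicotinic receptors open to acetylcholine. Metabotropic glutamate, GABA-B and muscarinic receptors signal through G proteins instead. Neural progenitors and astrocytes carry several of them, among them Grm3 and Grm5, and AMPA and GABA-A receptors are known to influence progenitor proliferation. The symbol rule also takes in Grid2ip, which encodes a scaffold protein that binds the delta-type glutamate receptor and is no receptor itself.

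The AMPA receptor subunits Gria2, Gria3 and Gria4, the delta receptor Grid1, the metabotropic receptor Grm3, the GABA receptor subunits Gabra5 and Gabbr1, the nicotinic subunit Chrnb1 and the muscarinic receptor Chrm3 were higher in irr NSCs, with a measured change of at least 2-fold. The kainate subunit Grik2 showed the clearest fall. Of the 23 members over the filter, 14 were higher in irr NSCs at a limma adjusted p under 0.05, where 40.2% of the 11364 genes tested were higher. Lower values were called for 3 members, against 37.1% of genes. A measured rise of at least 2-fold was called for 9 members, against 8.88% of genes, and a fall of that size for 0 members, against 6.16%. No member over the filter fell by 2-fold whatever its p, the lowest log2 change being -0.87. Of the 9 rises, 6 were measured against non-irr arrays below an intensity of 100 and are known only as bounds. The bounds reach 2-fold for Grid1, Grm3 and Chrnb1 but not for Gria2, Gria4 and Gabra5, so that 6 of the 9 rose at least 2-fold by measured values over the filter or by bound. This count rests on 1 probe set per gene. Averaged over all their probe sets, Grid1 and Gabbr1 stayed under 2-fold, with log2 changes of 0.82 and 0.79. The filter favours rises here, because 7 of the 14 members called higher passed it on irr arrays alone and 0 members passed it on non-irr arrays alone.

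Without the intensity filter all 58 members could be counted. In that limma fit 19 members were higher, which is 32.8% of them where 26.6% of all 18193 genes were higher, and 7 were lower, which is 12.1% where 28.9% of all genes were lower. Measured rises of at least 2-fold were called for 9 members or 15.5%, where 5.77% of all genes rose that far, and 0 members fell that far, where 3.91% of all genes did. The median log2 change of the 58 members was -0.04, beside -0.06 over all genes, so most receptor genes lay near 0 and a small number rose far.

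**Figure D1:**
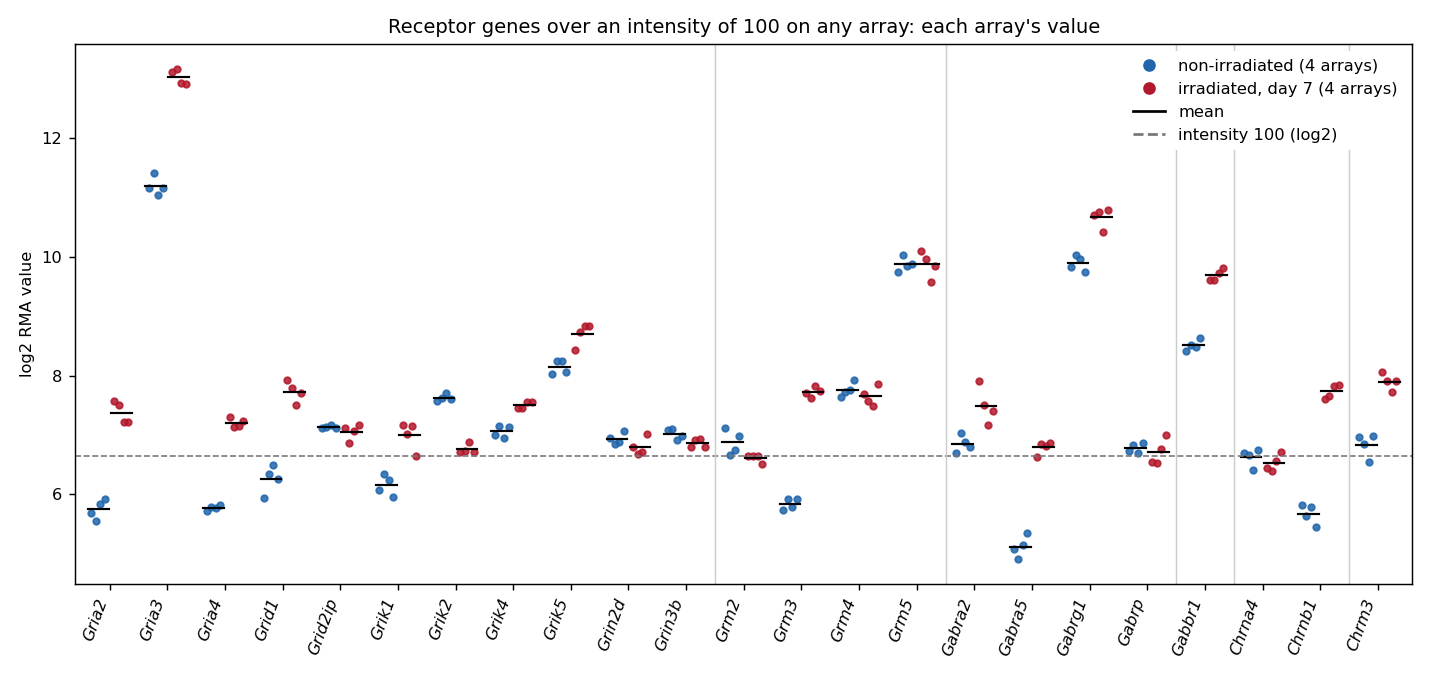
Log2 RMA value (vertical axis) of each of the 23 members over the filter, the scaffold gene Grid2ip included, on the 4 non-irr (blue) and 4 irr (red) arrays. Each group's mean is a bar and the intensity of 100 is a dashed line. Vertical lines part ionotropic glutamate, metabotropic glutamate, GABA-A, GABA-B, nicotinic and muscarinic receptors. In Gria2, Gria4, Grid1, Grik1, Grm3, Gabra5 and Chrnb1 all 4 non-irr arrays lie under the dashed line and at least 3 irr arrays lie over it.

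**Figure D2:**
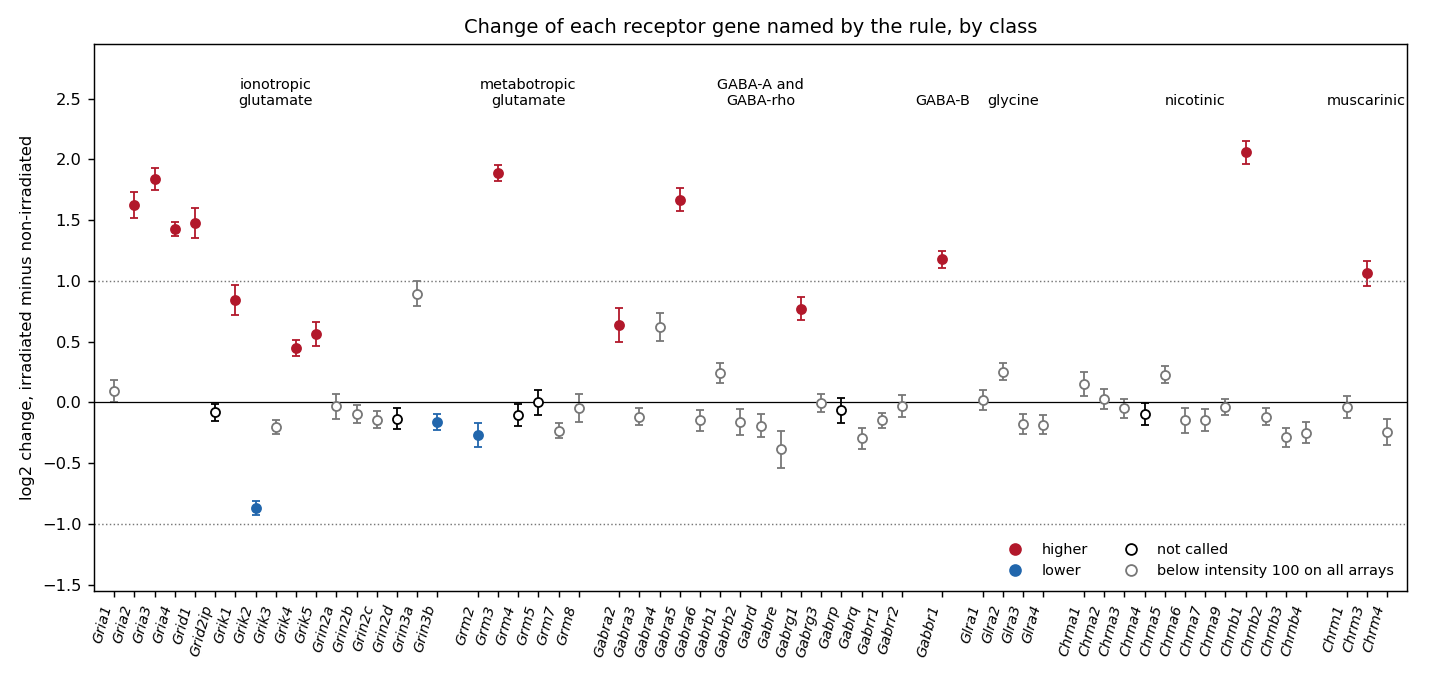
Log2 change of irr against non-irr NSCs (vertical axis) with the standard error of the limma fit without filter for each of the 58 members, ordered by receptor class. Filled points were called in the fit with the filter, open black points were tested and not called, grey points lie below an intensity of 100 on all arrays, and dotted lines mark a 2-fold change. The 9 points above the upper line come from all classes but the glycine receptors.

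The sequence around the start site is given for 4 of the risen genes, 1 each from the AMPA, metabotropic glutamate, GABA-B and nicotinic receptors, and for Grik2, the member that fell most. A 300-base RefSeq promoter (GRCm38.p6; 250 bases before the start site and 50 after) was matched by symbol for 43 of the 58 members. Searched on both strands were the GC box GGGCGG, the STAT site TTCNNNGAA, the TATA box TATAAA, the E-box CACGTG and RE1, the element of the neuronal gene repressor REST. Capitals mark each match, and positions run from 0 at the start site.
Gria2: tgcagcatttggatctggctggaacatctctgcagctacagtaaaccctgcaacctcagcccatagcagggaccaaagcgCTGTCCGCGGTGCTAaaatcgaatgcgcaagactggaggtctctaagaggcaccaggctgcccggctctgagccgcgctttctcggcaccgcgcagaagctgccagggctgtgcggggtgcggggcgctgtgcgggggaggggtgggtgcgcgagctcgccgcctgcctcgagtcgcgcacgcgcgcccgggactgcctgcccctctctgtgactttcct
Grm3: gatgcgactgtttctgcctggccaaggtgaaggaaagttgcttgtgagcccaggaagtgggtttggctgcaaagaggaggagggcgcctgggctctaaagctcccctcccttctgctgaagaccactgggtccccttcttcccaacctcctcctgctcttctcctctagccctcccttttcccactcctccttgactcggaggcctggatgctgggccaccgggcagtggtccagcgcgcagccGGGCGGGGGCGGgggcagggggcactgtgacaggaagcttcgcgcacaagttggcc
Gabbr1: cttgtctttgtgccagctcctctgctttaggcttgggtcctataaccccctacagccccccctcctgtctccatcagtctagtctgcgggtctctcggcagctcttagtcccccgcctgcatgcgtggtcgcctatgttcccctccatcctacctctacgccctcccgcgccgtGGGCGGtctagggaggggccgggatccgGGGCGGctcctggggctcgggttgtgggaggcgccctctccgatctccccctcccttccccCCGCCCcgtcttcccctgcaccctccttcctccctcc
Chrnb1: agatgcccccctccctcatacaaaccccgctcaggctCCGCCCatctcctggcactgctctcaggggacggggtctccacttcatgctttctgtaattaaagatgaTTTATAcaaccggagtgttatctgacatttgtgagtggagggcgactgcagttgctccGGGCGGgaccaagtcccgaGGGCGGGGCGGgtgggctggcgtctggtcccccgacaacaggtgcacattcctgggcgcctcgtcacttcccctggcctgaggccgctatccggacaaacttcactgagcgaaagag
Grik2: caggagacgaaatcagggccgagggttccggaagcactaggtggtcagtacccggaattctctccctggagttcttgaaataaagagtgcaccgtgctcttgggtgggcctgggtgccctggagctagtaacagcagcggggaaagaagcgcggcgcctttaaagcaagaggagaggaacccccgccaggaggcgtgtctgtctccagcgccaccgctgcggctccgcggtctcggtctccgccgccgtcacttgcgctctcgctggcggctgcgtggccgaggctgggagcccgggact

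These lie at chr3:80802786-80803085 (minus strand) for Gria2, chr5:9725303-9725602 (minus) for Grm3, chr17:37045716-37046015 (plus) for Gabbr1, chr11:69795888-69796187 (minus) for Chrnb1 and chr10:49788705-49789004 (minus) for Grik2. The Gria2 window holds an RE1 match from -170 to -156, read on the opposite strand, a match found in 80 of all 32851 promoters in the table (0.244%). Grm3 has adjoining GC boxes from -6 to -1 and from 0 to 5. Gabbr1 has GC boxes at -76 and -48, and another on the opposite strand at 13. Chrnb1 has GC boxes at -213 (opposite strand), -86, -67 and -62, of which the last pair share 1 base, and a TATA box letter match on the opposite strand at -144. The Grik2 window holds none of the 5 motifs. The windows of the risen genes Gria4, Gabra5 and Chrm3, not printed here, hold none of them either. The risen genes printed are thus those with a match, and no promoter was matched for Gria3 and Grid1. A GC box stood in 3 of the 7 promoters of members with a measured rise of at least 2-fold, in 53.8% of the 52 member promoters and in 35.7% of all promoters. STAT sites were in 0 of those 7 and in 8.3% of all, TATA boxes in 1 of 7 and in 13.6%, and E-boxes in 0 of 7 and in 7.15%. Median GC content was 60.0% in those 7, 59.8% in all member promoters and 52.7% in the table. These letter matches are descriptions of the windows, and binding to them was not measured.

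Glutamate receptor genes were the most numerous. Of 23 members, 15 were over the filter, and 8 were higher, 3 lower and 4 not called, beside 40.2% of all genes tested that were higher and 37.1% that were lower. Without filter 9 of the 23 were higher and 4 lower, beside 26.6% and 28.9% of all genes. These counts include the scaffold gene Grid2ip. Among the members of the ionotropic class, Grid2ip included, 7 of 11 over the filter were higher. Gria2 encodes the AMPA subunit whose edited form keeps calcium out of the channel. Its log2 values were 5.69, 5.55, 5.85 and 5.93 in non-irr NSCs and 7.58, 7.50, 7.22 and 7.22 in irr NSCs. The groups did not overlap, and irr replicates 1 and 2 lay above irr replicates 3 and 4. All non-irr arrays were below an intensity of 100, so Gria2 was at least 1.66-fold higher after irr, with a measured log2 change of 1.63 ± 0.11 (SE, n = 4 per group; limma adjusted p = 4.73e-07).

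Gria3, a further AMPA subunit, gave 11.16, 11.41, 11.05 and 11.16 in non-irr and 13.12, 13.17, 12.93 and 12.91 in irr NSCs. Every irr array lay far above the highest non-irr array, on a probe set bright on all 8 arrays. Its log2 change was 1.84 ± 0.09 (SE, n = 4), or 3.57-fold (limma adjusted p = 5.48e-08). For the AMPA subunit Gria4 the values were 5.73, 5.78, 5.78 and 5.83 without irr and 7.30, 7.13, 7.16 and 7.23 after irr. Both groups were tight and well apart, and the gene was at least 1.47-fold higher, with a log2 change of 1.43 ± 0.05 (SE, n = 4; limma adjusted p = 6.99e-09). Gria1, the remaining AMPA subunit, stayed below the filter on all arrays, with means of 3.39 and 3.49.

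Grid1 encodes a delta-type receptor that binds cerebellin rather than glutamate. Its log2 values were 5.93, 6.35, 6.49 and 6.25 in non-irr and 7.93, 7.79, 7.50 and 7.72 in irr NSCs. All irr arrays were above all non-irr arrays, and the gene was at least 2.13-fold higher (log2 change 1.48 ± 0.12, SE, n = 4; limma adjusted p = 2.54e-06). A second Grid1 probe set that also passed the filter moved by 0.16 only and was not called (limma adjusted p = 0.0856). The scaffold gene Grid2ip was not called, with means of 7.13 and 7.05 (log2 change -0.08; limma adjusted p = 0.285).

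Kainate receptor subunits moved both ways. Grik2 codes for a core kainate subunit and is described in full because of its direction, a choice made after its values were seen. It gave 7.58, 7.62, 7.71 and 7.61 in non-irr and 6.72, 6.73, 6.88 and 6.72 in irr NSCs. Every irr array was below every non-irr array, and the log2 change was -0.87 ± 0.05 (SE, n = 4), or 1.83-fold lower (limma adjusted p = 2.84e-07). Its second probe set gave -0.62 (limma adjusted p = 7.59e-06). Grik1, likewise a core subunit, was higher by 0.84 ± 0.12 (SE, n = 4) on the log2 scale and, with all non-irr arrays under an intensity of 100, at least 1.28-fold (limma adjusted p = 1.65e-04). Grik4 and Grik5, the high-affinity subunits that assemble with the core ones, rose from 7.06 to 7.51 and from 8.14 to 8.71, by 0.45 ± 0.06 and 0.56 ± 0.10 (SE, n = 4; limma adjusted p = 7.55e-05 and 4.50e-04). In each of these 4 genes the groups did not overlap. How many of all genes had groups without overlap was not counted, here or for other members. Of all probe sets tested 75.1% were called, so groups that lie apart are not particular to receptor genes.

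NMDA receptor subunits changed little among those over the filter. Grin2d, an NMDA subunit of early development, was not called (log2 change -0.13; limma adjusted p = 0.161). Grin3b, a glycine-binding subunit, was lower by -0.16 ± 0.06 (SE, n = 4; limma adjusted p = 0.0281). Its groups overlapped, from 6.92 to 7.10 in non-irr and from 6.80 to 6.93 in irr NSCs, and the call was lost under 10 of the 21 alternative settings that gave it a value. Among these were leaving out non-irr replicate 1 or 2 or irr replicate 1 or 4 (log2 changes -0.14 in each; limma adjusted p = 0.0773, 0.0775, 0.0673 and 0.0755). Grin3a, the related subunit, lay below the filter on every array, up to 6.42, and measured 0.90 higher after irr without the filter (limma adjusted p = 2.52e-05). Further Grin3a probe sets, also below the filter, gave 0.65 and -0.09 (limma adjusted p = 3.54e-04 and 0.238).

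Metabotropic glutamate receptors had 4 of 6 members over the filter, with 1 higher, 1 lower and 2 not called. Of all genes tested 40.2% were higher and 37.1% lower. Grm3, which lowers cyclic AMP and is known in astrocytes, gave 5.73, 5.92, 5.79 and 5.92 in non-irr and 7.72, 7.63, 7.82 and 7.74 in irr NSCs. The groups were far apart, and Grm3 was at least 2.12-fold higher, with a log2 change of 1.89 ± 0.06 (SE, n = 4; limma adjusted p = 4.47e-09). Grm2, the other receptor of this group, gave 7.12, 6.66, 6.75 and 6.98 without irr and 6.645, 6.644, 6.648 and 6.506 after irr. Its groups touched without overlap near the filter, and it was lower by -0.27 ± 0.10 (SE, n = 4; limma adjusted p = 0.0280), a call lost under 7 of the 21 alternative settings that gave it a value. Among these were leaving out non-irr replicate 1 (-0.19), non-irr replicate 4 (-0.23) or irr replicate 4 (-0.23; limma adjusted p = 0.0660, 0.0729 and 0.0726). Grm5, which raises calcium and is known from radial glia, is given because its probe set was bright and its group means nearly equal, also a choice made after its values were seen. Its arrays read 9.74, 10.03, 9.85 and 9.88 in non-irr and 10.10, 9.97, 9.58 and 9.85 in irr NSCs. The groups overlapped, with a log2 change of -0.00 ± 0.11 (SE, n = 4; limma adjusted p = 0.999). Grm4 was not called either (-0.11; limma adjusted p = 0.293).

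GABA receptor genes over the filter were 5 of 16, of which 4 were higher, 0 lower and 1 not called (40.2% and 37.1% of all genes tested were higher and lower). Without filter 6 of the 16 were higher and 1 lower, beside 26.6% and 28.9% of all genes. Gabra5, an alpha subunit of GABA-A receptors that mostly lie outside synapses, gave 5.08, 4.91, 5.15 and 5.36 in non-irr and 6.63, 6.85, 6.82 and 6.87 in irr NSCs. All irr arrays were above all non-irr arrays but only 3 of them were over the filter, so the gene was at least 1.11-fold higher, with a measured log2 change of 1.67 ± 0.09 (SE, n = 4; limma adjusted p = 1.49e-07). Gabrg1, a gamma subunit known from glial cells, gave 9.84, 10.03, 9.97 and 9.74 without irr and 10.71, 10.76, 10.41 and 10.79 after irr. Its probe set was bright on all arrays, the groups did not overlap, and the log2 change was 0.77 ± 0.09 (SE, n = 4), or 1.71-fold (limma adjusted p = 4.06e-05). Gabra2, an alpha subunit whose array values are given for their spread, a choice made after they were seen, gave 6.70, 7.04, 6.89 and 6.80 in non-irr and 7.91, 7.51, 7.16 and 7.40 in irr NSCs. The irr arrays were spread wider in this gene than in any other member over the filter, with no overlap, and the log2 change was 0.64 ± 0.14 (SE, n = 4; limma adjusted p = 2.38e-03). It fell to 0.42 when irr replicates 1 and 2 were left out (limma adjusted p = 7.28e-03). Gabrp, the pi subunit known mainly outside the brain, was not called (-0.07; limma adjusted p = 0.579).

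Gabbr1 encodes the subunit of the GABA-B receptor that binds GABA. It gave 8.41, 8.52, 8.48 and 8.63 in non-irr and 9.60, 9.61, 9.73 and 9.81 in irr NSCs. The irr arrays lay nearly 1 log2 unit or more above all non-irr arrays, and the log2 change was 1.18 ± 0.06 (SE, n = 4), or 2.26-fold (limma adjusted p = 1.28e-07). No glycine receptor alpha subunit passed the filter, their highest value being 4.78 across Glra1, Glra2, Glra3 and Glra4. The glycine receptor beta subunit Glrb, outside the symbol rule, rose from 7.95 to 8.72 (log2 change 0.76 ± 0.05, SE, n = 4; limma adjusted p = 6.03e-07).

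Acetylcholine receptor genes over the filter were 3 of 15, with 2 higher and 1 not called. Of all genes tested 40.2% were higher and 37.1% lower. Without filter 3 of the 15 were higher and 2 lower, beside 26.6% and 28.9% of all genes. Chrnb1, the beta subunit of the nicotinic receptor of muscle, gave 5.83, 5.63, 5.79 and 5.45 in non-irr and 7.60, 7.67, 7.82 and 7.84 in irr NSCs. The groups were far apart and the gene was at least 2.13-fold higher, with a measured log2 change of 2.06 ± 0.09 (SE, n = 4; limma adjusted p = 2.85e-08). The muscle subunit Chrna1, its usual partner, was below the filter on all arrays (up to 5.35), and so were Chrnd, Chrne and Chrng of the muscle receptor. Of 8 muscle markers, Myog, Myod1, Myh3, Tnnt3 and Ttn were below the filter, 1 of the other 3 was lower and none was higher, and their summed intensity was 550 to 632 in non-irr and 483 to 516 in irr NSCs. Chrm3, a muscarinic receptor that raises calcium, gave 6.97, 6.85, 6.54 and 6.98 without irr and 8.06, 7.91, 7.73 and 7.90 after irr. All irr arrays were above all non-irr arrays, and the log2 change was 1.06 ± 0.10 (SE, n = 4), or 2.09-fold (limma adjusted p = 8.49e-06). Chrm3 stood close to the 2-fold line, and its log2 change was 0.97 without non-irr replicate 3 and 0.98 without irr replicates 1 and 2. Chrna4, part of the main nicotinic receptor of brain, was not called (-0.10; limma adjusted p = 0.354).

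Several genes were read by more than 1 probe set, and these did not always move alike. All probe sets over the filter rose for Gria3 (1.84 and 1.502), Gabrg1 (0.77 and 0.57) and Gabbr1 (1.18, 1.22 and 0.71). For Gabra2 the 2 dimmer probe sets over the filter rose more, by 2.09 and 1.17 on the log2 scale (limma adjusted p = 6.33e-07 and 4.12e-05). Gabra4 is represented by a probe set under the filter (up to 6.54; log2 change 0.62), while its other probe set over the filter rose by 1.64 (limma adjusted p = 4.17e-06). Below the filter, Gria2 had further probe sets at 1.90 and 0.07, Gria4 at 0.47 and -0.17, Gabra2 at 0.56 and 0.03, Gabbr1 at 0.05 and Grik1 at 0.11. Averaging all probe sets of a gene before the filter left 17 members tested and 5 with a measured rise of at least 2-fold, with Grid1 at 0.82 and Gabbr1 at 0.79, and Gria2, Gria4, Grik1 and Gabra2 under the filter.

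**Figure D3:**
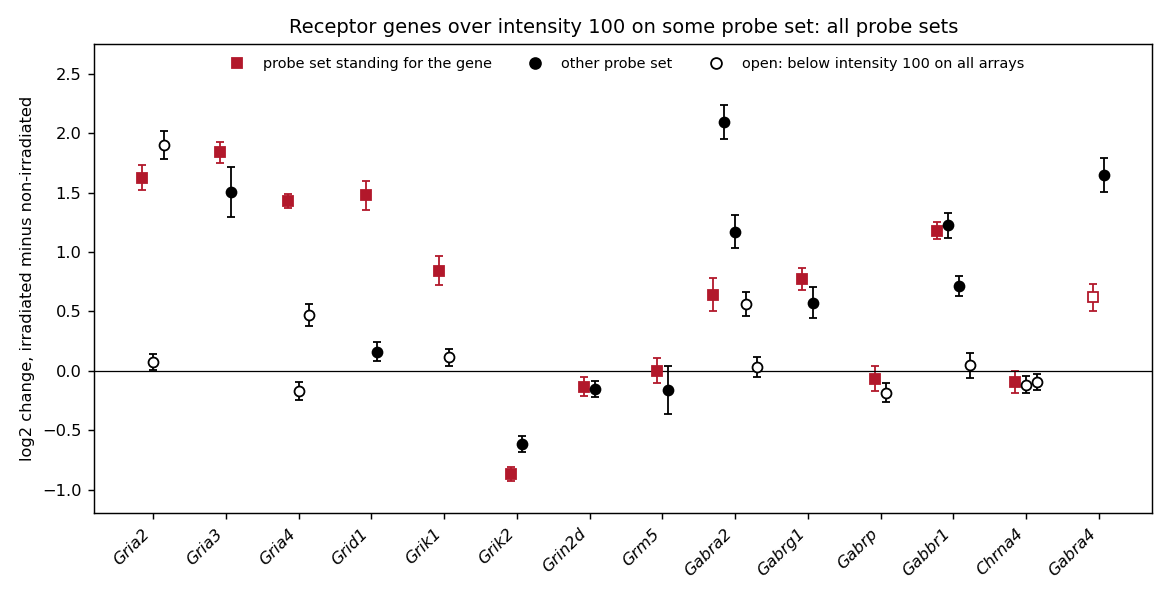
Log2 change of irr against non-irr NSCs (vertical axis), with the standard error of the limma fit without filter, for each probe set of the 14 receptor genes that had more than 1 probe set and at least 1 over the filter. Red squares are the probe sets that represent the gene, black circles are the others, and open symbols lie below an intensity of 100 on all arrays. Gria2, Gria4, Grid1, Grik1, Gabra2 and Gabbr1 each have a probe set within 0.2 of 0 beside one that rose.

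Below the filter lay 35 members. Nearest to it were Chrm1, with a highest value of 6.56, and Gabra4, with 6.54, while the dimmest members inside it were Chrna4, up to 6.74, and Gabra5, up to 6.87. Among these 35 the fit without filter called 5 higher, Grin3a and Gabra4 (0.90 and 0.62), Gabrb1 (0.24), Glra2 (0.25) and Chrna5 (0.23), and 5 lower, Grik3 (-0.20), Grm7 (-0.23), Gabrq (-0.30), Chrnb3 (-0.29) and Chrnb4 (-0.25). In that fit 26.6% of all 18193 genes, bright and dim, were higher and 28.9% were lower. The other 25 were not called, with log2 changes from -0.39 to 0.15. At such intensities the size of a change is uncertain.

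Proteins listed as anchoring, carrying or modulating these receptors were followed as lists. The lists also hold the receptor subunits Glrb, Chrnd, Chrne and Chrng, which the symbol rule leaves out. Whether a listed protein acts on these receptors in these cells was not tested. Of 25 glutamate receptor partners over the filter 12 were higher and 8 lower, where 40.2% of all genes tested were higher and 37.1% lower, and the median log2 change was 0.15 beside 0.01 over all genes. The transmembrane protein gene Grina rose by 2.10 ± 0.05, the AMPA receptor auxiliary subunit Cacng5 by 1.41 ± 0.07 and the pentraxin Nptx1, which gathers AMPA receptors, by 1.21 ± 0.05 (SE, n = 4; limma adjusted p = 9.13e-10, 5.11e-08 and 3.47e-08). Homer2, a scaffold of metabotropic glutamate receptors, was lower by -1.10 ± 0.10 (SE, n = 4; limma adjusted p = 3.35e-06). Partners of GABA and glycine receptors were higher in 10 and lower in 2 of 15 (median 0.36), beside 40.2% and 37.1% of all genes. Plcl1, which binds GABA-A receptors, was at least 2.40-fold higher, and Gabarapl1, Gabarap and Nlgn2 rose by 1.71, 0.95 and 0.94 on the log2 scale (limma adjusted p = 7.26e-09, 1.48e-08, 7.30e-08 and 3.52e-07). Acetylcholine receptor partners over the filter were 5 of 15, with 3 higher and 1 lower (40.2% and 37.1% of all genes). Dok7, which acts in clustering of the muscle receptor, was lower by -1.17 ± 0.10 (SE, n = 4; limma adjusted p = 2.14e-06), while Lypd1 (0.73), Lrp4 (0.59) and the receptor-clustering signal Agrn (0.32) were higher (limma adjusted p = 2.27e-07, 2.10e-06 and 2.40e-04).

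Genes that make, carry or remove the transmitters were higher in 9 and lower in 3 of 13 over the filter, beside 40.2% and 37.1% of all genes, with a median log2 change of 0.46. Gad1, the enzyme that makes GABA, was at least 3.44-fold higher, the glutamate transporter Slc1a2 rose by 2.74 ± 0.11 and the GABA-degrading enzyme Abat by 1.61 ± 0.04, and the glycine-cleaving enzyme Gldc was lower by -1.08 ± 0.06 (SE, n = 4; limma adjusted p = 6.10e-09, 1.53e-08, 1.15e-09 and 2.03e-07). The genes Slc17a6 and Slc17a7, which load glutamate into vesicles, and Chat, which makes acetylcholine, were below the filter on all arrays.

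**Figure D4:**
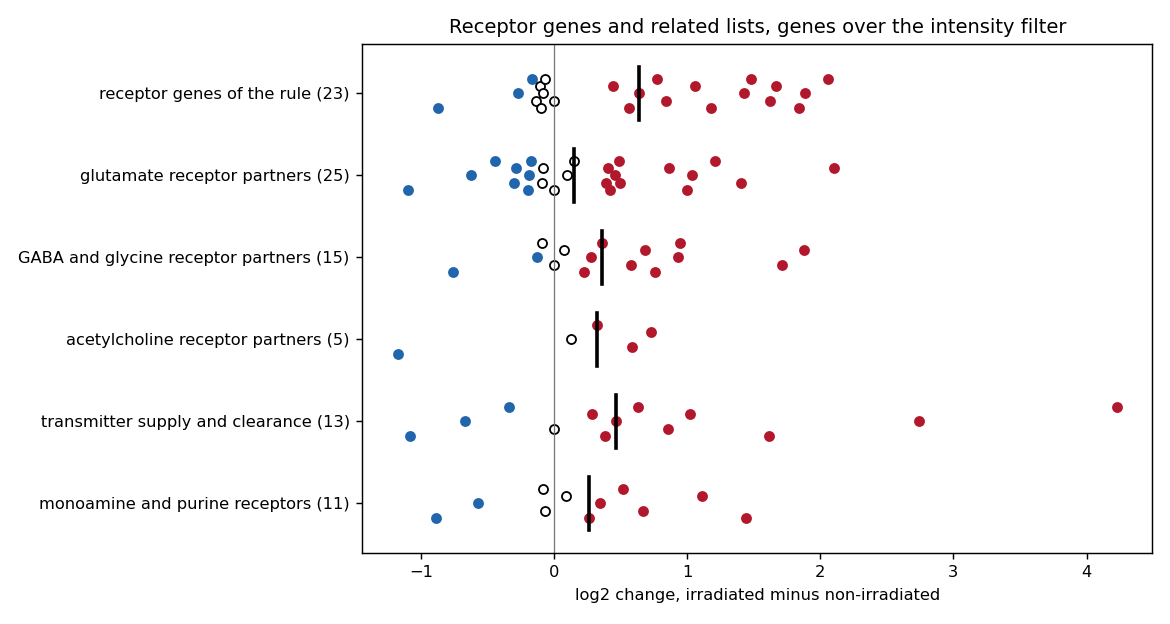
Log2 change of irr against non-irr NSCs (horizontal axis) of the members over the filter (labelled receptor genes, Grid2ip included) and of 5 related lists, with the number of genes over the filter in brackets. Red points were higher, blue points lower and open points not called at an adjusted p under 0.05, black bars mark medians, and the vertical offset of points has no meaning. The point farthest to the right is Gad1 and the median bar of the receptor genes lies at 0.64, over genes that passed a filter open to rises.

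Some cell type markers and measures of RNA quality differed between the groups as well, and their part in the receptor results was not tested. Among all genes tested 40.2% were higher and 37.1% lower. All 11 NSC markers measured were over the filter, with 4 higher, 3 lower and a median log2 change of -0.0002. Of 11 astrocyte markers over the filter 7 were higher and 3 lower, with Gjb6 under it. The lower ones were Gfap (-0.18), Aldoc (-0.73) and Fgfr3 (-1.39; limma adjusted p = 0.0187, 8.15e-07 and 7.48e-08). The list's summed intensity was 23691 to 25128 in non-irr and 40929 to 44675 in irr NSCs. Most of that rise came from Apoe, whose mean went from 9.29 to 13.94 on the log2 scale. Of 10 neuronal markers over the filter 2 were higher and 6 lower, 6 more including Snap25 and Stmn2 were under it, and the sum was 8552 to 9627 and 8927 to 9479. Oligodendrocyte, microglial and endothelial lists had 5, 2 and 2 genes over the filter, 1, 1 and 0 of them higher, with Pdgfra, Mog, Aif1, Cx3cr1, Pecam1 and Cdh5 below it. The gap between 3′ and 5′ control probe sets of actin was 0.26 ± 0.03 in non-irr and 0.51 ± 0.07 in irr NSCs (SD, n = 4; two-sided exact permutation p = 0.0286, the smallest this design allows), while that of Gapdh was -0.08 and -0.06. The same gap was also wider after irr for the transferrin receptor (0.35 ± 0.21 and 0.85 ± 0.24) and pyruvate carboxylase (0.52 ± 0.11 and 1.06 ± 0.07; SD, n = 4; exact permutation p = 0.0286 for each). Correlation between arrays was 0.996 to 0.998 within a group and 0.972 to 0.976 across groups. Irr and non-irr arrays separated on principal component 1 (85.0% of the variance), and irr replicates 1 and 2 lay on the other side of 0 from irr replicates 3 and 4 on component 2 (4.96%). With either pair left out 14 members were higher, 8 of them with a measured rise of at least 2-fold without replicates 1 and 2 and 9 without replicates 3 and 4.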

How the data were processed

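Total RNA was labelled and hybridized to Affymetrix GeneChip mouse genome arrays. The log2 values are RMA values as deposited by the authors, who read the arrays with GCOS and normalized them with RMA (versions not given in the sources used here). RMA sets all arrays to 1 distribution, so changes are relative to the whole array. The table holds 45101 probe sets, 64 of them controls. Symbols came from the platform annotation, updated through Entrez numbers for 34754 probe sets: 34958 carry 1 symbol, 932 several and 9211 none.

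The 21919 probe sets over an intensity of 100 on at least 1 array were fitted with limma 3.58.1 in R 4.3.3 (two-sided, Benjamini-Hochberg over all), after the study's methods but without their detection calls, which were not used here, and called at an adjusted p under 0.05. A gene below that intensity on all arrays of a group has only a bound, given as "at least". The number of arrays, 4 per group, limits the precision. Figures used matplotlib 3.10.9. Alternatives covered filters, scaling, variance model, replicate block, fold threshold, probe set choice and arrays left out.

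Members and lists were chosen with earlier results of these data known. Named were all members over the filter, with every array's value for those with a measured change of at least 2-fold and for the 2 called members of largest change in each class (the values of Grik2, Grm5 and Gabra2 were added after they were seen), and from each related list the 4 called genes of largest change. Probe sets of several or no symbol were left out.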

Additional observations from a re-analysis of the deposited data

Results flagged for a closer look

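In 2 of the 46 groups of 4 arrays tested, 1 array stood apart from the other 3 by Dixon's criterion, which chance meets in about 1 in 20 groups. For Grik2 this was irr replicate 3, at 6.88 where the nearest irr array read 6.73 (gap over range 0.923). It was still below all non-irr arrays. For Grm2 it was irr replicate 4, at 6.51 where the nearest irr array read 6.644 (gap over range 0.970), and the call of Grm2 was lost without it (log2 change -0.23; limma adjusted p = 0.0726).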

How the results depend on the processing

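Across 22 alternative settings 486 values of single members were obtained, of which 447 kept direction and side of the threshold, 22 lost the call, 4 gained it and 13 turned sign, all 13 in members not called. Members called higher numbered 14 of the 23 tested in the reported fit. They were 9 of the 12 tested with an intensity over 200 and 9 of 23 in the test against a 1.5-fold change. The share of all genes called is given here only for the reported fit and the fit without filter. Members called lower numbered 3 and became 7 without filter, where 58 members were tested. They became 1 with an intensity over 200, with centring on reference genes, in the 1.5-fold test and without irr replicates 1 and 2. With 1 array left out at a time, 1 to 3 members were lower, with the low of 1 when non-irr replicate 1 was left out. Measured rises of at least 2-fold numbered 9. They were fewest where fewer members were tested, at 5 with the mean of all probe sets (17 tested) and 6 with an intensity over 200 (12 tested). Centring on reference genes moved the median of all features to 0.11, and the log2 changes of Grid2ip, Grm4, Grm5, Gabrp and Chrna4 then read 0.031, 0.0059, 0.11, 0.047 and 0.018. Grm5 read 0.0038 with median centring, 0.16 without irr replicates 3 and 4, and -0.075 to 0.097 with 1 array left out. Without irr replicates 1 and 2 Gabrp read 0.11 and Chrna4 0.018. Leaving out irr replicates 3 and 4 kept 3 members lower, but not the same ones. Gabrp (-0.24) and Grin2d (-0.20) were then called lower (limma adjusted p = 0.0133 and 0.0484). Grin3b and Grm2 lost the call there (limma adjusted p = 0.0764 and 0.128). The causes of the other shifts were not tested. Correlations of same-numbered deviations were 0.04, 0.38, -0.21 and 0.51. The same-numbered irr array was the best match for replicates 2 and 4 but not for 1 and 3. Whether the replicate numbers pair the arrays could not be settled. The model with the number as a block called 14 members higher, 4 lower and 9 at least 2-fold higher, with Grin2d added (limma adjusted p = 0.0374). Signal near the intensity of 100 limits the size of change in members dim in 1 group.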

Other observations

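Receptors for monoamines and purines, which the symbol rule leaves out, were mostly dim in these NSCs. Of 38 such genes on the array 11 were over the filter, and 6 were higher, 2 lower and 3 not called, where all genes tested had 40.2% higher and 37.1% lower. Their list had a median log2 change of 0.26 beside 0.01 over all genes. The ATP and ADP receptors P2ry1 (7.04 ± 0.03 in non-irr and 8.48 ± 0.04 in irr NSCs, SD, n = 4), P2rx4 and P2rx7 rose by 1.44, 1.11 and 0.67 on the log2 scale (limma adjusted p = 2.07e-09, 9.59e-08 and 1.20e-05). Htr3a, the channel-forming serotonin receptor subunit, was lower by -0.88 ± 0.05 (SE, n = 4; limma adjusted p = 8.55e-08). Of 8 reference genes 2 were higher, 3 lower and 3 not called, with log2 changes from -0.66 for Pgk1 to 0.22 for Gusb.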
